A study of Rattus norvegicus with 9 samples.

Results

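10 genes that set or mark astroglial identity were followed across rat spinal cord after nerve injury and drug treatment: the SOX factors Sox2 and Sox9, the nuclear factor I genes Nfia, Nfib and Nfix, the regulatory factor X gene Rfx4, the hedgehog effectors Gli2 and Gli3, the paired box gene Pax6, and Fam181b. These 10 of the 34890 loci in the expression table were taken by gene name, and each name matched 1 locus. They were chosen by results of the PLM versus SNI comparison in these same samples, so their values in that comparison, and the counts of them past a threshold there, are a description and no test of them. The question was whether the factors fell as much as the astrocyte marker genes whose expression goes with them.

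RNA from the ipsilateral side of the L3-L6 spinal cord of 9 male, wild-type Sprague Dawley rats was sequenced in 3 groups of 3. JA rats had a sham operation, with the nerves exposed but not cut, and received saline. SNI rats had spared nerve injury, in which a ligature and cut interrupted the tibial and common peroneal nerves and the sural nerve was spared, and received saline. PLM rats had the same injury and received paeoniflorin at 20.65 mg/ml with liquiritin, glycosides of peony and licorice root. The labels of PLM replicates 1, 2 and 3 give the liquiritin as 3.98, 3.99 and 3.100 mg/ml, while the methods describe a single dose for the group, that of replicate 1. Ages are not given in the sources used here. All animals had surgery and gastric infusion, and among these samples no sham-operated rat received the drugs. The samples are labelled as biological replicates, and each is 1 replicate of its group.

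Astrocytes arise from radial glia, and SOX2, SOX9, PAX6 and RFX4 are already made in those progenitors. SOX9 induces NFIA at the onset of gliogenesis, and both proteins then bind together at genes of the astrocyte program. NFI factors switch progenitors from neuron to glia production and stay on in mature astrocytes, while GLI2 and GLI3 carry hedgehog signals to the nucleus. FAM181B binds TEAD transcription factors and is made in the developing nervous system. It is counted with the factors below. The whole tissue was sequenced, so fewer cells of a type and less RNA per cell cannot be told apart.

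Promoter windows of 8 of the 10 genes, 250 bases before to 50 bases after the annotated start, were taken from RefSeq (build GRCr8), and those of Sox9 and Fam181b were not analysed here. The windows of Rfx4, Pax6 and Sox2 are shown because they alone of the 8 held any of the motifs searched. Among the 8, the PLM mean level as a share of the SNI mean was lowest in Rfx4 and highest in Sox2. Sequences run 5′ to 3′, and capitals mark TTGGC, the core that NFI proteins bind, or its reverse complement GCCAA.
Rfx4, chr7:20903306-20903605, minus strand, the most upstream of 8 annotated windows: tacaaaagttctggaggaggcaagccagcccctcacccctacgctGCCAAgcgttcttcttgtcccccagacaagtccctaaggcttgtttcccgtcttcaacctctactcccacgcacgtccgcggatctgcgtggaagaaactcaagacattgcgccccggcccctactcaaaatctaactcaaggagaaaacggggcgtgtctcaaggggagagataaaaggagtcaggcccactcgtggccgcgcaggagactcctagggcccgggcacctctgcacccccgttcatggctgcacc
Pax6, chr3:112590346-112590645, plus strand: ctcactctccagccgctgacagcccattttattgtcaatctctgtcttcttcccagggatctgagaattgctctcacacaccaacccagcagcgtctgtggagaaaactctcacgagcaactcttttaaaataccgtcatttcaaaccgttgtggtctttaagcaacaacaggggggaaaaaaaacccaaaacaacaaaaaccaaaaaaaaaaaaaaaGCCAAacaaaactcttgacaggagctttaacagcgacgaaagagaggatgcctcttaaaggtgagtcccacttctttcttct
Sox2, chr2:119464881-119465180, plus strand: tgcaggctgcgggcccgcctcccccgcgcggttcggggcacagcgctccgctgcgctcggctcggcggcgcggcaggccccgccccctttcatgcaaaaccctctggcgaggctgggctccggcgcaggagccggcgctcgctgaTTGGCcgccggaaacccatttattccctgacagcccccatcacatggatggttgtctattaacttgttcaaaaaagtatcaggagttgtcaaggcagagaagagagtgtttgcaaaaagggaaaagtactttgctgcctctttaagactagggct
The NFI core began at position -205 from the start in Rfx4 and at position -32 in Pax6, both on the reverse strand, and at position -105 in Sox2, where it overlaps a CCAAT box read on the reverse strand. So 3 of 8 windows held the core, beside 45.8% of 33469 rat promoter windows. The SOX motifs ACAAAG and ACAATG, the RFX core GTTGCC, the TEAD motif GGAATG and the GLI motif TGGGTGGTC, each searched on both strands, were in none of the 8. They were in 18.8%, 13.2%, 12.2%, 14.2% and 0.385% of all windows. GC content was 43.0% in Pax6, 59.0% in Rfx4, 60.7% in Sox2 and 86.0% in Nfix, and the median of all windows was 51.7%. A match is a description of letters and not a site of binding.

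Expression is given as TPM, a transcript abundance scaled by transcript length and to the same total in each sample, so levels of different genes can be set side by side, but the read depth behind each value is unknown. The share of TPM on mitochondrial genes ranged from 25.3% to 32.8% in JA, from 23.7% to 26.1% in SNI and from 31.3% to 32.8% in PLM. Rescaling TPM after removing mitochondrial genes moved the members' median log2 difference between PLM and SNI from -0.43 to -0.34. Pearson's r between pairs of samples ranged from 0.9459 to 0.9663 across genes. JA replicate 3 stood apart from the other JA samples in astrocyte genes: the mean log2(TPM + 1) of 20 astrocyte markers (Gfap, Aqp4, Slc1a2 and others, listed from general knowledge) was 7.56, 7.15 and 6.38 in JA replicates 1, 2 and 3. It was between 7.34 and 7.60 in SNI and between 6.06 and 6.36 in PLM, so JA replicate 3 lay next to PLM. None of the 20 markers was at 0 in any group, and Gfap, the astrocyte intermediate filament gene, was at 374.44 TPM in JA replicate 3. The members' results against JA are therefore also given without this sample. Markers of Schwann cells, which belong to the nerve roots and not to the cord, also varied within groups: their mean log2(TPM + 1) was 3.96, 2.44 and 6.52 in JA, 3.58, 5.85 and 4.76 in SNI and 3.05, 4.06 and 5.71 in PLM, and its part in the results was not tested.

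In the injured, saline-treated cord the genes ranked from Sox2, with a mean of 80.8 TPM, through Fam181b at 37.7, Nfix at 29.9, Nfia at 9.18, Nfib at 5.55, Sox9 at 4.58, Pax6 at 3.78 and Rfx4 at 3.64, to Gli3 at 0.410 and Gli2 at 0.407 TPM. Neighbours in this order from Nfib to Rfx4 overlapped in their samples, as did Gli3 and Gli2, and the other neighbours did not. Of the 10, 8 passed the minimum mean of 1 TPM in every comparison, and Gli2 and Gli3 did not, so they are described without a test.

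**Figure D1:**
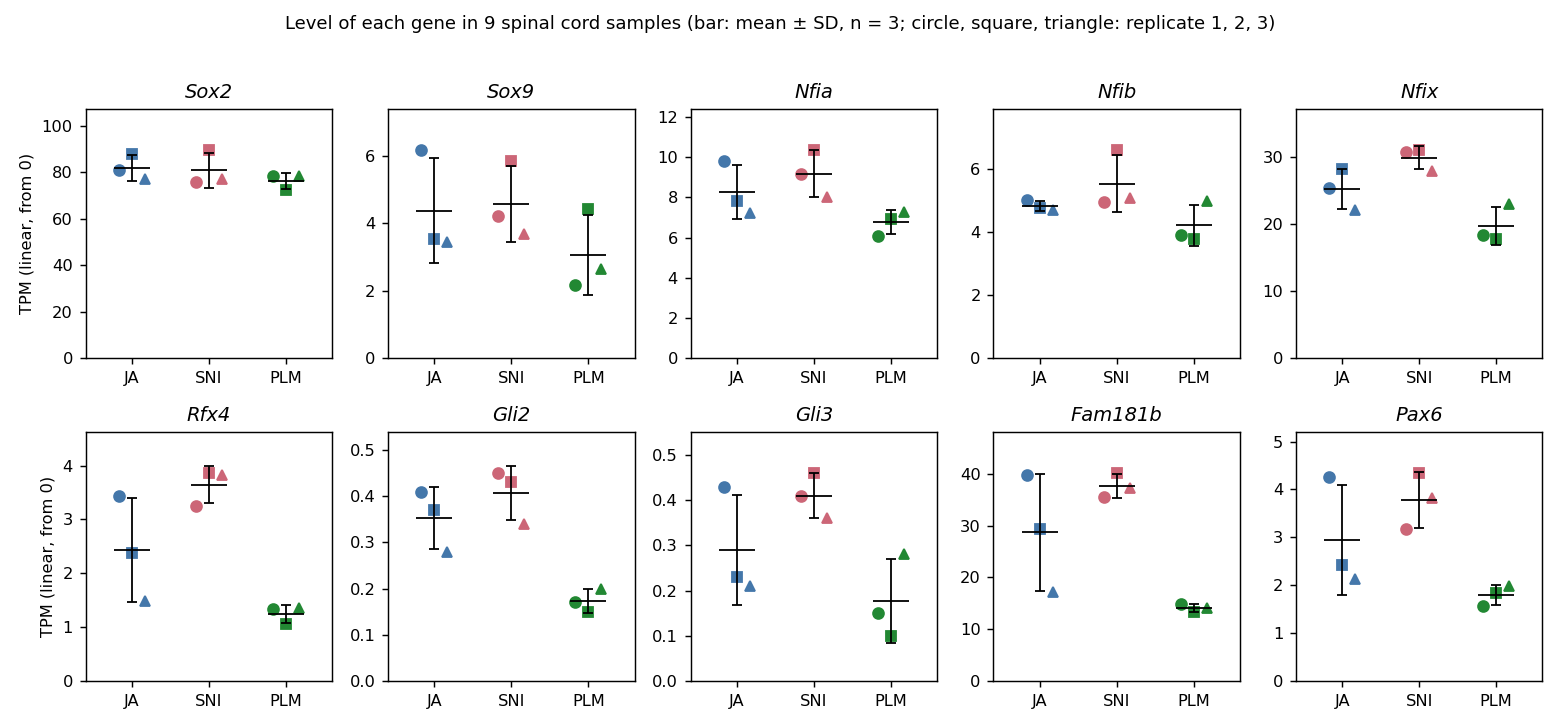
TPM of each of the 10 genes on a linear axis from 0 in the 3 JA, 3 SNI and 3 PLM samples, with circles, squares and triangles for replicates 1, 2 and 3 and bars for the mean ± SD. The PLM samples of Rfx4, Gli2, Fam181b and Pax6 lie below every SNI and JA sample, those of Sox2 overlap with the SNI and JA samples, and JA replicate 3 is the lowest JA sample in each panel.

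Sox2, which keeps neural progenitors and astrocytes in their lineage, was the most abundant factor and the most even. It was at 80.92, 87.93 and 76.89 TPM in JA, 75.87, 89.34 and 77.07 TPM in SNI and 78.14, 72.29 and 78.28 TPM in PLM. The 3 groups overlapped. The PLM mean was 94.4% of the SNI mean, and single PLM and SNI samples gave from 80.9% to 103%. The log2 fold change was -0.08 (SE 0.08) as deposited and 0.17 when every sample was centred on its median gene, so the direction of Sox2 turned with the scaling. Sox9, the other SOX factor and a nuclear marker of astrocytes, was at 6.16, 3.52 and 3.44 TPM in JA, 4.20, 5.85 and 3.68 TPM in SNI and 2.16, 4.41 and 2.64 TPM in PLM. A single PLM sample lay within the SNI range, and the other PLM samples lay below it. The PLM mean of 3.07 ± 1.19 TPM (SD, n = 3) was 67.1% of the SNI mean of 4.58 ± 1.13 TPM, with a log2 fold change of -0.47 (SE 0.24).

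The means of the 3 nuclear factor I genes in PLM were between 66.0% and 76.1% of those in SNI. Nfix, a late-acting member of the family, was at 25.31, 28.18 and 22.14 TPM in JA, 30.72, 30.99 and 27.92 TPM in SNI and 18.34, 17.75 and 23.05 TPM in PLM. Its PLM samples lay below all SNI samples, and 1 JA sample reached into each of the other groups' ranges. The PLM mean was 66.0% of SNI, with a log2 fold change of -0.58 (SE 0.11). Nfia, the early gliogenic member, was at 9.81, 7.81 and 7.23 TPM in JA, 9.17, 10.34 and 8.03 TPM in SNI and 6.10, 6.92 and 7.29 TPM in PLM. Here too no PLM sample reached the lowest SNI sample, and the PLM mean was 73.7% of SNI. Nfib, which acts with Nfia in glial and lung development, was at 5.02, 4.78 and 4.70 TPM in JA, 4.95, 6.60 and 5.09 TPM in SNI and 3.90, 3.78 and 4.98 TPM in PLM. A single PLM sample lay above the lowest SNI sample, and every JA sample lay within the PLM or the SNI range. The PLM mean was 76.1% of SNI. After centring, the log2 fold changes of Nfix, Nfia and Nfib were -0.34, -0.14 and -0.08.

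Rfx4, a winged-helix factor of neural progenitors and astrocytes that is needed for cilia and for dorsal patterning of the neural tube, had the lowest PLM share of the 10. It was at 3.43, 2.37 and 1.49 TPM in JA, 3.25, 3.86 and 3.82 TPM in SNI and 1.33, 1.05 and 1.36 TPM in PLM. All PLM samples lay below all samples of both other groups, and JA spread from the SNI range down almost to PLM. The PLM mean of 1.25 ± 0.171 TPM was 34.2% of the SNI mean of 3.64 ± 0.341 TPM (SD, n = 3 each), and single pairs gave from 27.2% to 41.8%. The log2 fold change was -1.05 (SE 0.13) as deposited and -0.80 centred.

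Gli2, the main activator of hedgehog targets, was at 0.41, 0.37 and 0.28 TPM in JA, 0.45, 0.43 and 0.34 TPM in SNI and 0.17, 0.15 and 0.20 TPM in PLM. Gli3, which acts mainly as a repressor, was at 0.43, 0.23 and 0.21 TPM in JA, 0.41, 0.46 and 0.36 TPM in SNI and 0.15, 0.10 and 0.28 TPM in PLM. In both genes the PLM and SNI samples did not overlap, and the PLM means were 42.6% and 43.1% of SNI. At such low TPM the log2(TPM + 1) scale understates a change: the same differences were -0.26 for Gli2 and -0.26 for Gli3 as deposited, and -0.01 and -0.02 centred.

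Pax6, a progenitor factor kept in a part of mature astrocytes and in some spinal neurons, was at 4.26, 2.43 and 2.13 TPM in JA, 3.17, 4.34 and 3.83 TPM in SNI and 1.57, 1.83 and 1.99 TPM in PLM. No PLM sample overlapped with either other group. The PLM mean was 47.5% of SNI, with a log2 fold change of -0.77 (SE 0.14) as deposited and -0.52 centred. Fam181b, the TEAD-binding gene, was at 39.78, 29.31 and 17.20 TPM in JA, 35.61, 40.14 and 37.24 TPM in SNI and 14.84, 13.31 and 14.12 TPM in PLM. The SNI and PLM samples were each tight and far apart, and JA replicate 3 lay close to PLM while JA replicate 1 lay at the SNI level. The PLM mean of 14.1 ± 0.765 TPM was 37.4% of the SNI mean of 37.7 ± 2.29 TPM (SD, n = 3 each). Its log2 fold change, -1.36 (SE 0.07) as deposited and -1.11 centred, was the lowest of the 10 on both scales.

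**Figure D2:**
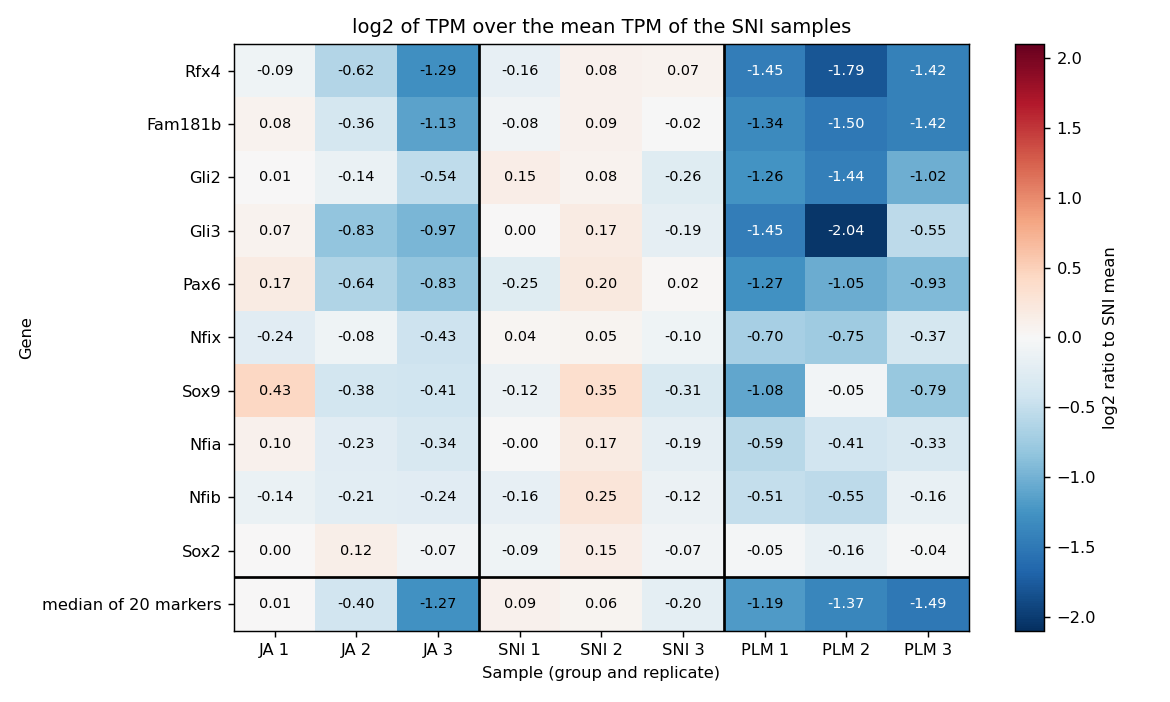
Log2 ratio of each sample's TPM to the mean TPM of the SNI samples, one row per gene and one column per sample, with the median of the 20 astrocyte markers in the last row; blue is lower and red is higher than the SNI mean. The PLM columns run from -2.04 in PLM replicate 2 of Gli3 to -0.04 in PLM replicate 3 of Sox2, and JA replicate 3 is at -1.29 in Rfx4 and -1.13 in Fam181b, beside -1.27 for the median marker.

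In PLM versus SNI, the comparison that chose the genes, the PLM samples of 7 of the 10 lay below all SNI samples, with Sox2, Sox9 and Nfib as the exceptions. In 41.9% of all 15474 genes tested PLM lay below SNI without overlap. Gli2 and Gli3, which are among the 7, did not pass the minimum and are not among these genes. With an unadjusted p under 0.05 and more than 1 log2 unit of change required, 2 of the 8 tested were called, Rfx4 and Fam181b, beside 1.42% of all genes called lower. At a limma adjusted p under 0.05 the count past the threshold was 4 (Nfix, Rfx4, Fam181b and Pax6), beside 13.6%. After centring each sample on its median gene, Fam181b was the 1 call by either threshold, beside 0.659% by fold and 0.685% by adjusted p. The median log2 fold change of the 10 was -0.43 as deposited, beside -0.21 for all genes tested, of which 85.0% were below 0. Centred, it was -0.18 beside 0.04, and 9 of the 10 were below 0, beside 42.4% of all genes. Over the 8 tested the median was -0.53 as deposited and -0.28 centred. Since this comparison chose the genes, nothing is read from these counts.

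Set beside their markers, the identity factors were closer to the SNI level on the whole, and widely spread. Their PLM means ran from 24.5% of SNI for Slc1a2, the glutamate transporter GLT-1, to 68.2% for Hepacam, a cell adhesion gene, with a median of 40.8%. The 10 factors ran from 34.2% to 94.4%, with a median of 56.8%, and the median of all genes tested was 84.4%.  Of the 20 markers, 7 had a lower PLM share than Rfx4, 9 than Fam181b, 12 than Gli2, 13 than Gli3 and 15 than Pax6. The NFI and SOX genes were near or past the upper end: 18 markers had a lower share than Nfix, 19 than Sox9, and all 20 than Nfia, Nfib and Sox2. By this ratio Rfx4, Fam181b, Gli2, Gli3 and Pax6 lay inside the marker range, Nfix and Sox9 near its upper end, and Nfia, Nfib and Sox2 above it. The placing changed with the scale. By log2(TPM + 1) fold change 9 markers were lower than Fam181b, 15 than Rfx4, 17 than Pax6 and 19 than Nfix. All 20 were lower than Sox9, Gli2, Gli3, Nfia, Nfib and Sox2. Gli2 and Gli3 were untested and at low TPM, where this scale understates a change.

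**Figure D3:**
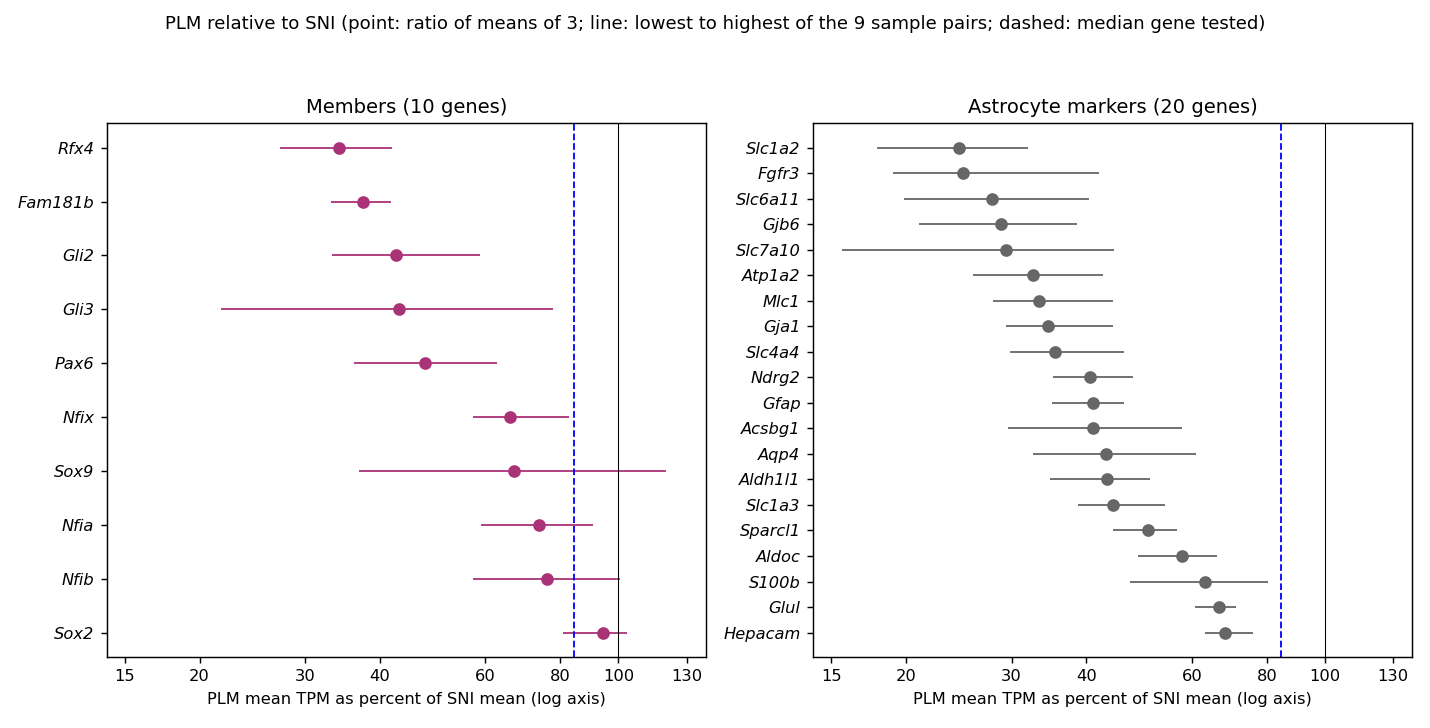
PLM mean TPM as percent of the SNI mean on a log axis for the 10 genes (left) and the 20 astrocyte markers (right), with lines from the lowest to the highest of the 9 pairs of samples, a dashed line at the median gene (84.4%) and a solid line at 100%. The genes spread from Rfx4 at 34.2% to Sox2 at 94.4%, while no marker is above Hepacam at 68.2%.

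On the log2(TPM + 1) scale the median marker had a fold change of -1.29 in PLM versus SNI as deposited and -1.05 centred. All 20 passed limma's adjusted p under 0.05 as deposited, beside 13.6% of all genes called lower, and 13 passed centred, beside 0.685%. The marker list was chosen with earlier results of these data known, so these counts are a description and no test of it. The mean of the factors minus the mean of the markers within each sample, which median-centring cannot move, was -4.61, -4.39 and -4.36 in SNI and -3.92, -3.71 and -3.48 in PLM. The groups did not overlap, and the gap was narrower in PLM by 0.75. With a pseudocount of 0.1 in place of 1, which compresses the low factors less, it was narrower by 0.55. The list of factors was likewise chosen with these samples known, so no p-value is given for the gap.

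The JA samples, which had neither nerve injury nor drug, also differed unevenly in these genes. JA replicate 3 had 41.6% of the TPM of JA replicate 1 for the median marker, from 23.9% for Slc1a2 to 81.0% for Hepacam, and 87.0% for the median gene. Among the factors it had 43.2% for Fam181b, 43.4% for Rfx4, 48.8% for Gli3, 50% for Pax6 and 55.8% for Sox9. The shares were 68.3% for Gli2, 73.7% for Nfia, 87.5% for Nfix, 93.6% for Nfib and 95% for Sox2. The shares depended on the reference sample. Against JA replicate 2, JA replicate 3 had 53.5% for the median marker and 95.7% for the median gene. Among the factors it then had 58.7% for Fam181b, 62.9% for Rfx4, 87.7% for Pax6, 91.3% for Gli3 and 97.7% for Sox9. The other factors were between 75.7% in Gli2 and 98.3% in Nfib. The factors minus the markers came to -4.47, -4.31 and -3.75 in JA replicates 1, 2 and 3, so the gap in JA replicate 3 was within the PLM range and the gaps in the other JA samples were outside it. These are single samples, so the shares have no replicate error.

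**Figure D4:**
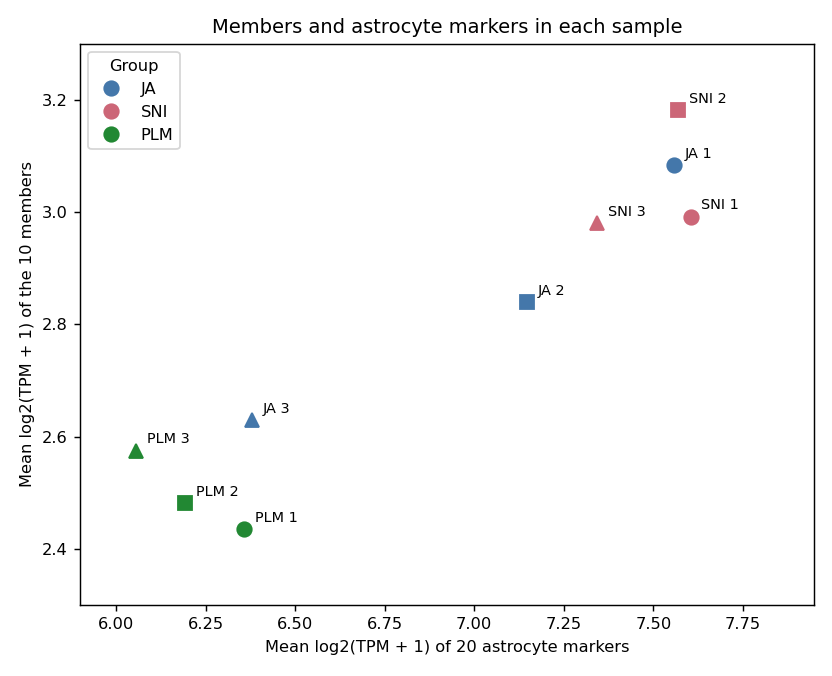
Mean log2(TPM + 1) of the 10 genes against that of the 20 astrocyte markers, one point per sample, coloured by group and labelled with the replicate. The PLM samples and JA replicate 3 lie at marker means between 6.06 and 6.38 and the other 5 samples between 7.15 and 7.60; the factors span 2.44 to 3.18, a smaller range than the markers.

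SNI versus JA asks what the injury did under saline, and shares the SNI samples with the comparison that chose the genes. No factor passed the limma test in either direction. At an unadjusted p under 0.05 with an absolute log2 fold change above 1, 0 of 8 were called, beside 0.495% of 15557 genes called higher. At a limma adjusted p under 0.05, 0 of 8 were called, beside 0% of all genes called higher, and at an unadjusted p alone limma also called 0 of 8, beside 6.11% of all genes. No factor had its SNI samples above all JA samples, beside 12.1% of all genes. The widest difference was that of Rfx4, whose SNI mean was 149.9% of the JA mean, with a log2 fold change of 0.47 (SE 0.22) and a limma adjusted p of 0.614. Fam181b had 130.9% and 0.45 (SE 0.27), with a limma adjusted p of 0.614. Pax6 had 128.6% and 0.31 (SE 0.22), with a limma adjusted p of 0.639. In these 3 genes the SNI and JA samples overlapped, since JA replicate 1 was at the SNI level. These differences rested in part on JA replicate 3: without it Rfx4 was at 0.26, Pax6 at 0.16 and Fam181b at 0.14, with limma adjusted p of 0.836, 0.886 and 0.86, and Sox9 turned to -0.05. Sox2, the 1 gene with a lower SNI mean, had 98.6% and -0.02 (SE 0.10), with a limma adjusted p of 0.933. The median over the 10 was 0.15, beside 0.12 for all genes and 0.49 for the markers (0.11 for the 10 without JA replicate 3), and 9 of the 10 were above 0, as were 76.4% of all genes. Centred, the median over the 10 was 0.03, beside -0.005 for all genes and 0.37 for the markers. Of the 10, 7 were then above 0, beside 48.6% of all genes, since Sox9 and Gli2 turned to -0.05 and -0.07. Over the 8 tested the median was 0.20 as deposited and 0.08 centred.

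PLM versus JA sets the treated, injured cord beside the sham-operated one, and shares the PLM samples with the comparison that chose the genes. As deposited all 10 factors had a lower mean in PLM (centred, Sox2 was at 0.02), from 49.0% of the JA mean in Fam181b to 93.1% in Sox2. Of all genes tested 71.2% were below 0 as deposited and 43.7% centred. None was called at an unadjusted p under 0.05 with an absolute log2 fold change above 1, beside 0.658% of 15349 genes called lower, and none at a limma adjusted p under 0.05, beside 0.013%. At an unadjusted p under 0.05 alone limma called 3 of 8, Nfix, Rfx4 and Fam181b, beside 10.5% of all genes. Centred, limma called 1 of 8 in this way, Fam181b, beside 4.72% of all genes. Fam181b as deposited had a log2 fold change of -0.90 (SE 0.27) with a limma adjusted p of 0.356, and Rfx4 had -0.57 (SE 0.23) with 0.417. Pax6 had -0.46 (SE 0.22) with a limma adjusted p of 0.484, and Sox9 had -0.40 with 0.603. The PLM samples lay below all JA samples in 4 of 10, namely Rfx4, Gli2, Fam181b and Pax6, beside 15.7% of all genes. Gli2 was not tested and is not among the genes behind this share. Without JA replicate 3 the count was 7 of 10, with Sox2, Nfia and Nfix added, and the share of all genes was also higher, at 35.0%. Fam181b was then at -1.22, with a limma adjusted p of 0.0628, and became the 1 factor called by fold and unadjusted p, beside 1.18% of all genes called lower, while Rfx4 was at -0.79 and Pax6 at -0.61, with limma adjusted p of 0.138 and 0.228. The median over the 10 was -0.30 (-0.38 without JA replicate 3), beside -0.10 for all genes and -0.89 for the markers. Centred, it was -0.17, beside 0.03 for all genes and -0.76 for the markers. Over the 8 tested the median was -0.37 as deposited and -0.25 centred. Markers of the meninges and fibroblasts also had lower values here, with a median of -1.05 as deposited and -0.92 centred over 7 genes. Their mean log2(TPM + 1) was between 4.16 and 5.14 in JA and between 3.16 and 3.78 in PLM, and its part in the members' differences was not tested.

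The genes that work with these factors were read from lists written from general knowledge, in PLM versus SNI with limma. These lists, and those of other cell types below, were also chosen with earlier results of these data known. Their calls in PLM versus SNI are therefore a description and no test of the lists. Of 17 other astroglial transcription factors 15 matched, 11 were tested, and 10 of them averaged 1 TPM or more in both groups. Of these 10, 3 fell (Id4, Hopx and Etv5), beside 14% of all genes that met the same minimum, with none higher and a median log2 fold change of -0.46. Id4, an inhibitor of bHLH factors, averaged 53.7 ± 3.14 TPM (SD, n = 3) in SNI but 28.5 ± 5.35 TPM in PLM, a difference of -0.90 with a limma adjusted p of 0.0158. Hopx, the most abundant of the list, had -0.64 with a limma adjusted p of 0.0149. Rorb, a nuclear receptor, was at 1.97, 2.00 and 1.96 TPM in SNI and 0.52, 0.93 and 0.84 TPM in PLM, and since it met the minimum through SNI alone it is not counted. Hes5, a Notch target, had -0.20 and Tead1 -0.28, and neither passed. Centred, none of the 11 passed, beside 0.685% of all genes called lower, and the median was -0.29.

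Of 16 further hedgehog pathway genes, the route that ends at Gli2 and Gli3, 12 were tested and 6 fell, beside 13.6% of all genes, with none higher and a median log2 fold change of -0.46. Shh, the ligand, was at 5.41, 3.93 and 4.89 TPM in SNI and 2.74, 2.57 and 2.59 TPM in PLM, a change of -0.65 with a limma adjusted p of 0.0279. Its JA samples, at 4.05, 2.05 and 1.55 TPM, overlapped with PLM. Smo, the signal transducer, was at 9.69, 9.76 and 8.48 TPM in SNI and 4.91, 5.95 and 6.34 TPM in PLM, a change of -0.62 with a limma adjusted p of 0.0248. The co-receptor gene Cdon and the ligand-release gene Disp1 were each at -0.19 and did not pass. Centred, none of the 12 passed, beside 0.685% of all genes called lower, and the median was -0.21.

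Among 18 TEAD and Hippo genes, which include the partners that FAM181B binds, 15 were tested, 3 fell and none rose, a count near the 13.6% of all genes called lower, with a median log2 fold change of -0.28. Yap1, the TEAD co-activator, averaged 16.4 ± 1.71 TPM (SD, n = 3) in SNI but 10.4 ± 0.574 TPM in PLM, a change of -0.61 with a limma adjusted p of 0.0176. Ccn1, a YAP and TEAD target, had -0.94 with a limma adjusted p of 0.0895 and did not pass. Sav1 and Vgll3 were at 0.01 and -0.01. Centred, none of the 15 passed, beside 0.685% of all genes called lower, and the median was -0.03. The 3 genes known to be bound by SOX9 and NFIA together did not move alike. Mmd2 fell from 113.9 ± 9.31 to 56.3 ± 5.43 TPM (SD, n = 3), a change of -1.01 with a limma adjusted p of 0.0054, and it also passed centred. Zcchc24 was at -0.17 and Apcdd1 at -0.06, and neither passed.

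Transcription factors of other cell types were measured in the same way. Of 9 oligodendrocyte lineage factors tested none passed in either direction, with a median of -0.26 as deposited and -0.01 centred. Olig1, the most abundant of them, was at -0.26 and Sox10 at -0.13. Of 15 neuronal factors tested none passed, with a median of -0.15 as deposited and 0.10 centred. Of 7 microglial factors Sall1 fell by 0.32 on the log2 scale (limma adjusted p of 0.0349), and of 8 endothelial factors Epas1 fell by 0.33 (limma adjusted p of 0.0406), and neither passed centred. These counts of 1 are near the 13.6% of all genes called lower. The medians were -0.11 for the microglial and -0.02 for the endothelial factors as deposited, and 0.14 and 0.23 centred. Whether these lists differ from the astroglial one was not tested. In SNI versus JA and in PLM versus JA no gene of any list passed limma's adjusted p under 0.05. By unadjusted p and fold together, 4 of 20 astrocyte markers (Gfap, Slc1a2, Fgfr3 and Slc6a11) and 4 of 7 meningeal markers (Col1a1, Col3a1, Igf2 and Ogn) were lower in PLM versus JA, beside 0.658% of all genes, and 1 Hippo gene (Ccn1) was higher in SNI versus JA, beside 0.495%. Centred, the PLM versus JA counts were 1 (Gfap) and 0, beside 0.306% of all genes. The centred Hippo count in SNI versus JA was 0, beside 0.244% of all genes called higher.

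Markers of the other cells in the tissue were measured beside the factors, in PLM versus SNI, where the median of all genes tested was -0.21 as deposited and 0.04 centred. The median log2 fold change as deposited was -0.24 for 8 neuron markers, -0.05 for 8 oligodendrocyte markers, -0.22 for 5 oligodendrocyte precursor markers and 0.03 for 8 microglia markers. It was 0.10 for 7 endothelial markers, -0.15 for 7 ependymal markers, -0.64 for 8 Schwann cell markers and -0.58 for 7 meninges and fibroblast markers. It was -0.21 for 7 posterior Hox genes, which mark the level of the cord. Centred, the medians were 0.01 for neuron, 0.20 for oligodendrocyte, 0.03 for oligodendrocyte precursor, 0.27 for microglia, 0.35 for endothelial, 0.09 for ependymal, -0.39 for Schwann cell and -0.33 for meningeal markers and 0.04 for Hox genes. The sign thus turned for the neuron, oligodendrocyte, oligodendrocyte precursor and ependymal markers and the Hox genes. Of these lists, 1 microglia marker (Tmem119) and 2 meningeal markers (Igf2 and Slc6a13) passed limma's adjusted p as deposited, beside 13.6% of all genes called lower, and none passed centred, beside 0.685%. The mean log2(TPM + 1) of the meningeal markers was between 3.54 and 4.92 in SNI and between 3.16 and 3.78 in PLM. Its part in the factors' differences was not tested.

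The genes nearest to Fam181b and to Sox9 were ranked by the root mean square difference of their centred log2(TPM + 1) profiles over the 9 samples, each taken relative to its own mean. Fam181b, whose profile spanned 1.31 log2 units, was followed most closely by Ndrg2 at 0.0925, Ppp1r1b at 0.0942, Sdc4 at 0.0993, Pamr1 at 0.111 and Slc4a4 at 0.112. Ndrg2 and Slc4a4 are astrocyte markers of the list above. Ppp1r1b, which encodes the phosphatase inhibitor DARPP-32, was at 87.07, 68.69 and 39.88 TPM in JA, 79.13, 89.68 and 82.11 TPM in SNI and 33.39, 24.83 and 31.05 TPM in PLM. As in Fam181b, JA replicate 1 was near the SNI level and JA replicate 3 was the JA sample nearest to PLM. Sox9, with a span of 0.899, had no neighbour as close: Mfsd10 was at 0.172, Fam3c at 0.175, Acaa1a at 0.177, F8 at 0.185 and Il17rd at 0.19. None of these 5 is on the marker list.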

How the data were processed

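Libraries were made by the submitters with an RNeasy Plus extraction and an Illumina TruSeq kit from 9 rat spinal cord samples, 3 per group. According to the methods and the submitters' processing notes, the authors trimmed reads (fastp version 0.19.5), mapped them with HISAT2 and computed expression with StringTie, and deposited 1 table of TPM values with 2 decimals. The notes name GRCh38.p13, a human build, while the identifiers are of rat, so no coordinates were taken from the table. TPM keeps no read depth, so no counting error can be given and count tests were not used.

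Genes averaging 1 TPM or more in the samples of a comparison were tested on log2(TPM + 1) with limma version 3.58.1 (R version 4.3.3) with a variance trend, each pair of groups separately, and p-values were adjusted by Benjamini-Hochberg over all genes tested. A call required an unadjusted p under 0.05 and more than 1 log2 unit of change, and the count at an adjusted p under 0.05 stands beside it. Fold changes on this scale understate low genes. Centred values take each sample's median over the genes tested away. The test was checked on simulated data. Alternatives were centring, quantile normalization, rescaling without mitochondrial genes, a pseudocount of 0.1, other filters, a fit to all 9 samples, the replicate block and leaving out each sample. Leaving out Fam181b, centring with adjusted p, the count of non-overlapping genes without JA replicate 3, and a minimum of 1 TPM in both groups for the gene lists were added after seeing the data.

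The members and lists were chosen with earlier results of these data known. All 10 members are named, and of each other list up to the 2 lowest and 2 highest fold changes and, for the transcription factor lists, the most abundant gene. Etv5, Tmem119, Igf2, Slc6a13, Sall1, Epas1, Gfap, Slc6a11, Col1a1, Col3a1 and Ogn are also named as members of small counts, after their values were seen. Names that matched no single locus (Sox1, Sox3, Lhfpl3, Foxj1, Pecam1, Col1a2 and Hoxa11) were left out of their lists, and Prrxl1 was matched by its RefSeq synonym Drgx. Errors are SD over 3 samples unless SE is written.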

Additional observations from a re-analysis of the deposited data

How the results depend on the processing

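The median log2 fold change of the 10 members in PLM versus SNI, -0.43 as reported, was -0.18 with centring, -0.19 with quantile normalization and -0.75 with a pseudocount of 0.1, and in PLM versus JA, -0.30 as reported, it was -0.51 with a pseudocount of 0.1. Members called lower in PLM versus SNI, 2 as reported beside 1.42% of all genes, numbered 1 with centring, beside 0.659%. They numbered 4 at an adjusted p under 0.05, beside 13.6%, and 1 with centring and adjusted p together, beside 0.685%. They numbered 1 with quantile normalization and 1 to 2 when a single sample was left out, with 1 left without PLM replicate 2. The share of all genes was not counted for quantile normalization, the replicate block or samples left out of PLM versus SNI. Nothing is read from the counts there. In PLM versus JA the members called lower numbered 0 to 1 when a sample was left out, with 1 (Fam181b) without JA replicate 3, beside 1.18% of all genes. The factors minus the markers differed between PLM and SNI by 0.75, by 0.55 with a pseudocount of 0.1, and by 0.64 to 0.86 with a sample left out. Directions turned for Sox2 in PLM versus JA with centring (0.023) and in PLM versus SNI with centring (0.168), quantile normalization (0.127) and without mitochondrial genes (0.067). They also turned in SNI versus JA for Sox9 with centring (-0.050) and quantile normalization (-0.044), for Gli2 with both (-0.065 and -0.146) and for Gli3 with quantile normalization (-0.069), and leaving out single samples moved SNI versus JA from -0.096 to 0.030 for Sox2 and from -0.086 to 0.297 for Sox9. With the replicate block, which keeps every fold change, the median in PLM versus SNI was -0.43 and the calls were again 2, 0 and 0 in PLM versus SNI, PLM versus JA and SNI versus JA. Same-numbered samples correlated between -0.046 and 0.126 in their deviations from group means, so the numbers were not taken as pairs. The cause of each of these changes was not tested, except that centring takes away the shift of the median gene. Gli2 and Gli3 were untested because of the minimum of 1 TPM, and without that filter limma gave them adjusted p of 0.79 and 0.712 in SNI versus JA and 0.454 and 0.715 in PLM versus JA. Read depth is unknown.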
